A study of Homo sapiens with 12 samples.

Results

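The autophagy machinery is represented here by 10 genes that span the pathway from its first kinase to its cargo receptor, namely ULK1, BECN1, ATG9A, ATG2A, WIPI1, ATG16L1, MAP1LC3B, GABARAPL1, SQSTM1 and TFEB. They were chosen by name, with earlier results of these data known. All 10 were found among the 56537 gene names of the transcript table. Their level is the sum of FPKM (fragments scaled to transcript length and to the mapped fragments of the library) over the transcripts that either matched a reference transcript (class =) or shared at least a splice junction with it (class j). All 10 were also among the 16680 gene names that exceeded 0.5 FPKM in at least 3 of the 12 libraries and were tested. The cells were HCT116, an established line from a human colorectal carcinoma, and their poly(A) RNA was sequenced with strand information after 0, 1, 2 or 24 h in 1% O2, with 3 numbered replicates per time point. The study calls them biological replicates, but no source used here says how the cultures were separated, so p-values measure the spread between these libraries, which may be technical. The 0 h cells were held at 21% oxygen. Cells entered the hypoxia workstation 24 h after plating, and the sources used here do not say how long after plating each group was harvested. Hypoxia and a longer culture therefore cannot be told apart at 24 h.

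Macroautophagy encloses cytoplasm in a double membrane, the autophagosome, and delivers it to the lysosome for degradation. A kinase complex built on ULK1 starts the process, a lipid kinase complex held together by Beclin 1 (BECN1) marks the membrane, ATG9A vesicles and the lipid transfer protein ATG2A supply lipid, and WIPI proteins read the lipid mark. The ATG12-ATG5-ATG16L1 complex then couples small ubiquitin-like proteins of the ATG8 family, among them LC3B (MAP1LC3B) and GABARAPL1, to the membrane, where they bind receptors such as p62 (SQSTM1) with their cargo. TFEB is a transcription factor known for switching on autophagy and lysosome genes. Low oxygen is a known trigger of autophagy, and a gene's mRNA level is not a measure of how much autophagy takes place.

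The hypoxia genes CA9, NDRG1 and BNIP3 were higher in each 24 h library than in each 0 h library. CA9 (carbonic anhydrase 9) was at 0.0249 to 0.140 FPKM at 0 h and 3.77 to 5.90 at 24 h, while NDRG1 was at 18.1 to 30.5 and 890 to 1161 FPKM. Of the epithelial markers, EPCAM stayed between 214 and 354 FPKM in all 12 libraries, KRT8 between 786 and 1191 and KRT18 between 450 and 756, and CDH1 was at 6.91 to 8.26 FPKM at 0 h and 24.3 to 27.4 at 24 h. PTPRC, a leukocyte marker, reached at most 0.00950 FPKM, and PECAM1, an endothelial marker, was listed at 0 throughout. COL1A1, fixed as a fibroblast marker, was at 1.79 to 2.16 FPKM at 0 h and 5.75 to 8.79 at 24 h, and its part in the results below was not tested. No read counts were analysed here, so the spread between 3 libraries is the measure of precision.

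None of the 10 genes passed the test at 1 h or 2 h. At 24 h 7 of them were higher than at 0 h (GABARAPL1, ULK1, WIPI1, TFEB, MAP1LC3B, ATG2A and ATG9A), BECN1 was lower, and SQSTM1 and ATG16L1 did not pass the test. The values were tested with limma as log2(summed FPKM + 0.5), p was adjusted over the 16680 genes by the Benjamini-Hochberg method, and a gene passed at an adjusted p under 0.05. Of all genes tested, 25.0% passed as higher at 24 h and 30.3% as lower. The median log2 difference of the 10 genes was 0.58, against -0.05 for all genes. With the thresholds of the study for differential expression, an adjusted p under 0.01 and a change over 2-fold, only GABARAPL1 and ULK1 were called, both higher, as were 8.76% of all genes, while 9.51% were called lower. In bulk RNA, a change in the number of cells that express a gene and a change in RNA per cell cannot be told apart.

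These directions hold for deposited FPKM summed over all class = and j transcripts, and with median-of-ratios scaling between libraries. With transcripts under the filter dropped before summing, ATG2A was at -0.02 (adjusted p = 0.95, limma). When each library was rescaled to the same sum of FPKM (TPM), the median of all genes itself moved to -0.675 on the log2 scale. Transcripts under 300 bases carried 57.0 to 87.6% of a library's FPKM. On that scale the changes of MAP1LC3B, ATG2A and ATG9A turned negative, BECN1 (lower) was the only one of the 10 to pass, where 3.32% of all genes passed as higher and 41.1% as lower, and 7 of the 10 lay above the median of all genes, against 8 on the FPKM scale. With transcripts of at least 300 bases alone, 6 genes passed as higher and BECN1 as lower.

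**Figure D1:**
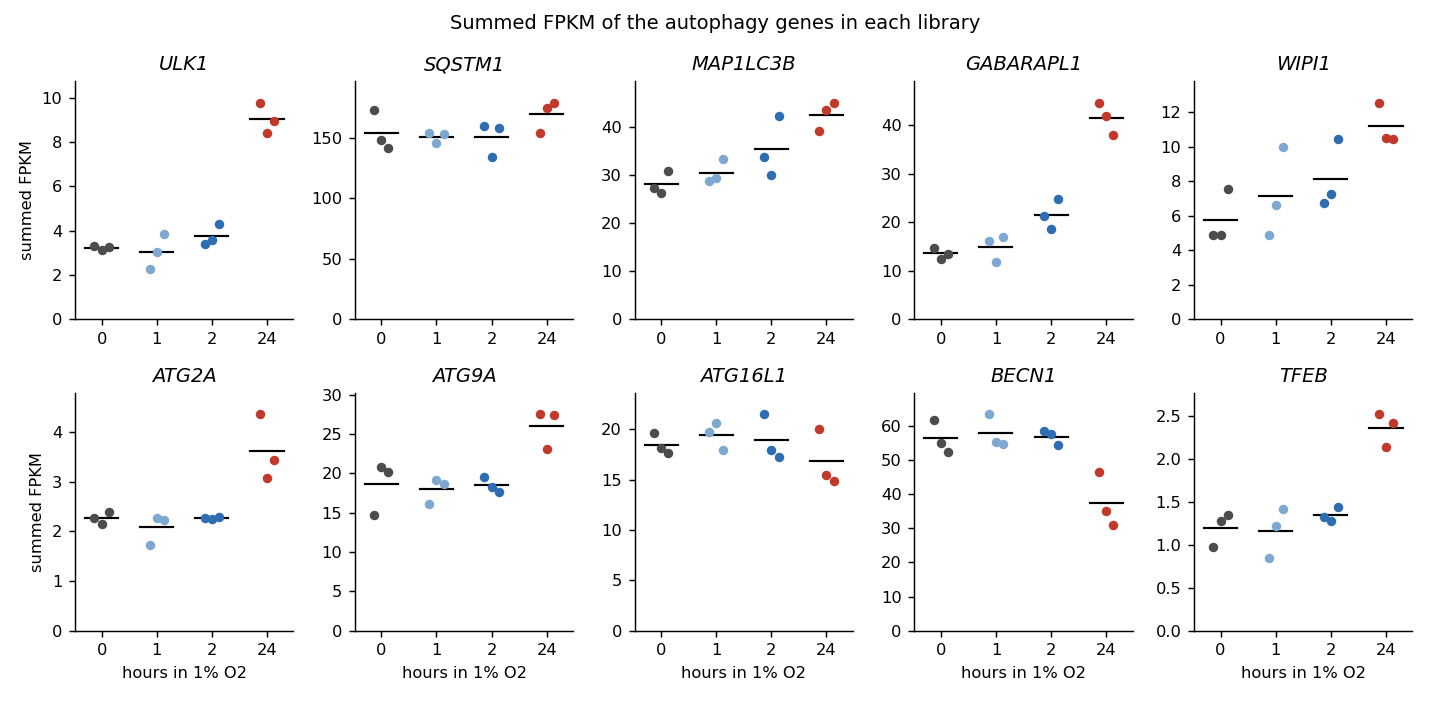
Summed FPKM (vertical axes, from 0, different for each gene) of the 10 autophagy genes by hours in 1% O2 (horizontal axes). Each point is 1 library and each line the mean of 3. GABARAPL1 and ULK1 stand clear of all earlier libraries at 24 h, BECN1 lies below them, and SQSTM1 overlaps between 0 h and 24 h; after rescaling to TPM the differences of MAP1LC3B, ATG2A and ATG9A at 24 h turn negative.

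At 1 h none of the 10 genes passed, and 0.006% of all genes did (1 of 16680). None of the 10 had an unadjusted p under 0.05, against 4.61% of all genes. Log2 differences ranged from -0.11 (ATG2A) to 0.26 (WIPI1), with 5 genes above 0. At 2 h none passed either, against 0.312% of all genes, and 2 of the 10 (GABARAPL1 and MAP1LC3B) had an unadjusted p under 0.05, against 15.3% of all genes. GABARAPL1 came closest at 2 h, with a log2 difference of 0.64 (SE 0.15) and an adjusted p of 0.099. The replicate numbers of the labels paired the 0 h and 2 h libraries, in that all 3 same-numbered pairs deviated together. With the replicate number as a block over all 12 libraries GABARAPL1 passed at 2 h (limma adjusted p = 0.037), as did 1.65% of all genes. That fit includes the 24 h libraries, whose same-numbered pairs with 0 h correlated by -0.001 to 0.242. After rescaling to TPM its 2 h difference turned to -0.40, where the median of all genes was at -0.884. On that scale 4 of the 10 genes passed at 2 h, all lower, against 54.2% of all genes as lower and 0.294% as higher. These were SQSTM1 (-1.12, adjusted p = 0.040), ATG9A (-1.01, 0.041), ATG16L1 (-0.99, 0.043) and BECN1 (-1.05, 0.042), of which the last 3 were just above 0 on the FPKM scale. The comparisons at 1, 2 and 24 h share the same 0 h libraries.

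Between 2 h and 24 h, 5 of the 10 genes passed as higher (ULK1, GABARAPL1, ATG2A, ATG9A and TFEB), against 23.2% of all genes, and BECN1 passed as lower, against 27.4%. This contrast uses no 0 h library. MAP1LC3B and WIPI1, which were higher at 24 h than at 0 h, had 2 h means between those of 0 h and 24 h, with libraries that overlapped both groups, and did not pass between 2 h and 24 h (adjusted p = 0.087 and 0.14, limma).

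**Figure D2:**
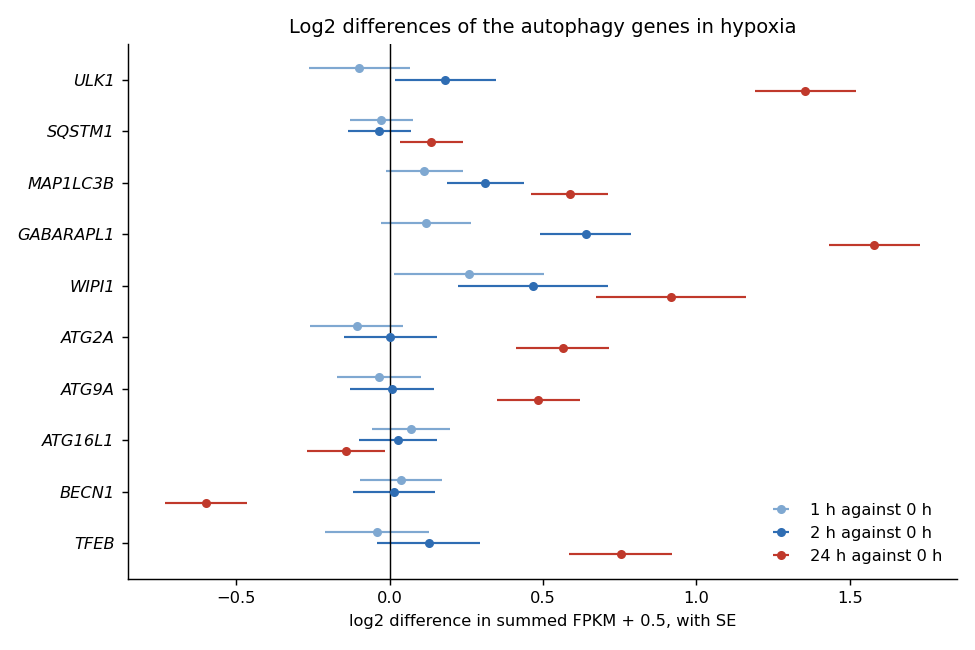
Log2 difference in summed FPKM + 0.5 (horizontal axis, with SE from limma) of each gene against 0 h at 1 h, 2 h and 24 h. The 1 h values sit between -0.11 and 0.26, and the 24 h values run from -0.60 (BECN1) to 1.58 (GABARAPL1); after rescaling to TPM those of MAP1LC3B, ATG2A, ATG9A and SQSTM1 at 24 h turn negative.

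Hypoxia-inducible factors bind the core letters ACGTG or GCGTG, TFEB binds the E-box CACGTG, and TGACGTCA is the site of cyclic AMP response element factors. These 4 were searched on both strands in the 250 bases before the start of each gene's canonical transcript (GENCODE release lifted to GRCh37, genome GRCh37), and each CACGTG also counts as an ACGTG. A core ACGTG or GCGTG was found before 6 of the 10 genes (ULK1, MAP1LC3B, ATG2A, ATG9A, BECN1 and TFEB), against 51.4% of 19874 promoters of coding genes. No CACGTG lay in these windows of the 10 genes, against 7.87% of all promoters. TGACGTCA lay before GABARAPL1 alone, against 2.40% of all. The 30 bases around the match nearest to the start are printed for each gene with a match, on the strand of the gene, with the match in capitals (CACGC and CACGT are the cores read on the other strand).
ULK1, chr12:132379090-132379119, plus strand: ccgtctgttcgtCACGCccggctctgccgc
MAP1LC3B, chr16:87425816-87425845, plus strand: gctgggttccgcCACGCccgtcatggcggc
GABARAPL1, chr12:10365435-10365464, plus strand: ggctcgcggggTGACGTCAcagcccgacgc
ATG2A, chr11:64684730-64684759, minus strand: tgagcgtaggggGCGTGgctgggcgtccgg
ATG9A, chr2:220094476-220094505, minus strand: tgagccccgcccCACGTagagcacactatt
BECN1, chr17:40976309-40976338, minus strand: ccgtcgtagcgtCACGTccggtctcggcgg
TFEB, chr6:41703440-41703469, minus strand: ctacaaatcccgGCGTGcctagcgggactg

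The match lay 65 bases before the start of ULK1, 114 before that of MAP1LC3B, 30 before that of GABARAPL1, 66 before that of ATG2A, 135 before that of ATG9A, 26 before that of BECN1 and 111 before that of TFEB. GC content of the 10 windows ran from 51.6% (GABARAPL1) to 79.6% (WIPI1), and the median of all promoters was 63.2%. A match in letters is a description of the sequence and no record of binding.

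ULK1, the kinase that starts autophagosome formation, lies on chromosome 12 at 132379167 to 132407695 (plus strand, ENSG00000177169). Its summed FPKM was 3.29, 3.12 and 3.27 in the 0 h libraries, 2.25, 3.02 and 3.86 at 1 h, 3.38, 3.56 and 4.30 at 2 h, and 9.79, 8.40 and 8.96 at 24 h. The 24 h libraries lay above all 9 others, with no overlap. The log2 difference from 0 h was 1.35 (SE 0.16, adjusted p = 2.8e-05, limma), a ratio of means of 2.80, and that from 2 h was 1.17 (SE 0.16, adjusted p = 9.8e-05). Of 9 ULK1 transcripts 3 passed the filter, all of them on the coding reference ENST00000321867, and all 3 passed as higher. The one that matches it held 43.4% ± 9.1 (SD, n = 3) of ULK1 FPKM at 0 h and 43.5% ± 6.6 at 24 h, but 89.6% ± 1.5 and 79.0% ± 6.7 of it with class = alone. That transcript was at 1.11, 1.39 and 1.70 FPKM at 0 h and 4.74, 3.02 and 4.12 at 24 h (adjusted p = 0.0078, limma). A shorter class j model of 2646 bases held 41.0% ± 12.9 at 0 h and 35% ± 4.9 at 24 h. That model passed with an adjusted p of 0.015, and lost the call without 0 h replicate 2 or 3 (highest adjusted p 0.055). The third model, of 6262 bases, passed the filter only through its 24 h libraries, the group in which it was high. Its adjusted p was 0.044 (limma), and it lost the call without any 1 of the 6 libraries.

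BECN1 encodes Beclin 1, the scaffold of the lipid kinase complex, on chromosome 17 at 40962152 to 40985367 (minus strand, ENSG00000126581). It was at 61.8, 55.1 and 52.2 FPKM at 0 h, at 63.3, 55.2 and 54.7 at 1 h, at 58.4, 57.6 and 54.4 at 2 h, and at 46.5, 35.1 and 30.9 at 24 h. All 3 libraries of 24 h were below the other 9, although 24 h replicate 1 lay nearer to the 0 h libraries than to 24 h replicate 3. On the log2 scale BECN1 fell by 0.60 (SE 0.13, adjusted p = 0.0024, limma) to 0.666 of its 0 h mean, and it passed as lower under each of the 19 alternatives tried. BECN1 has 25 transcripts, of which 17 passed the filter, 3 passed as lower and none as higher. ENST00000361523 went from 14.8, 14.4 and 15.7 FPKM at 0 h to 9.003, 8.84 and 6.02 at 24 h (adjusted p = 0.0035, limma). ENST00000590099, the leading coding transcript, held 35.5% ± 1.8 of BECN1 FPKM at 0 h and did not pass, with 23.0, 18.5 and 18.5 FPKM at 0 h against 17.7, 11.7 and 16.0 at 24 h. A minor coding transcript, ENST00000438274, went from 5.79, 3.58 and 4.72 FPKM to 1.083, 0.816 and 0, with an adjusted p of 0.0024, and was singled out after its values were seen.

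ATG9A, the transmembrane protein whose vesicles seed the autophagosome, lies on chromosome 2 at 220084102 to 220094439 (minus strand, ENSG00000198925). Its sum was 14.7, 20.9 and 20.2 FPKM at 0 h, 16.1, 19.2 and 18.7 at 1 h, 19.6, 18.3 and 17.6 at 2 h, and 27.5, 23.1 and 27.5 at 24 h. The groups at 0 h and 24 h did not overlap, and 0 h replicate 1 was the lowest of all 12 libraries. ATG9A rose by 0.49 on the log2 scale (SE 0.14, adjusted p = 0.0095, limma), and by 0.33 without 0 h replicate 1 (adjusted p = 0.045). The call was lost (adjusted p = 0.073) on TPM over transcripts of at least 300 bases. ATG9A shares its locus in the table with ABCB6, a transporter gene that rose from between 6.31 and 7.61 FPKM at 0 h to between 19.2 and 22.7 at 24 h. Among the 37 ATG9A transcripts, 16 are models of a reference that reaches into ABCB6, and together these went from 0.682, 0.453 and 0.665 FPKM at 0 h to 2.96, 2.56 and 2.195 at 24 h. Without them ATG9A was at 14.1, 20.4 and 19.6 FPKM at 0 h and 24.6, 20.5 and 25.3 at 24 h, so that the highest 0 h and the lowest 24 h library nearly met. The coding transcript ENST00000396761 was at 3.09, 3.29 and 3.11 FPKM at 0 h, 4.41, 4.22 and 4.51 at 2 h, and 8.94, 8.24 and 7.07 at 24 h (24 h against 0 h, adjusted p = 0.0031, limma). Its share of ATG9A FPKM went from 17.4% ± 3.1 (SD, n = 3) to 31.3% ± 5.1. ENST00000409618, which led at 0 h with 28.6% ± 4.9, was at 4.83, 4.82 and 6.03 FPKM at 0 h and 6.44, 5.198 and 6.36 at 24 h and did not pass.

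ATG2A transfers lipid into the growing membrane, and its gene lies on chromosome 11 at 64662018 to 64684681 (minus strand, ENSG00000110046). It was at 2.26, 2.14 and 2.39 FPKM at 0 h, 1.73, 2.28 and 2.23 at 1 h, 2.27, 2.25 and 2.28 at 2 h, and 4.35, 3.06 and 3.44 at 24 h. The 24 h libraries lay above all others. The log2 difference of 0.56 (SE 0.15, adjusted p = 0.0073, limma) depends on many weak models, since 10 of its 16 transcripts are of class j and 3 passed the filter. When transcripts under the filter were dropped before summing, the difference was -0.02 (adjusted p = 0.95), and with class = alone it was 0.94 (adjusted p = 0.069). No single ATG2A transcript passed. The leading model at 0 h, of 6352 bases, held 33.99% ± 23.0 of ATG2A FPKM at 0 h and 14% ± 11.3 at 24 h, so which isoform leads cannot be read from these libraries. Other models on the same reference held 16.2% ± 16.3 at 0 h and 4.2% ± 6.1 at 24 h (6346 bases) and 13.4% ± 8.6 and 21.1% ± 8.4 (7365 bases). The retained-intron transcript ENST00000472525 stayed under the filter and held 4.9% ± 4.7 of ATG2A FPKM at 0 h and 17.7% ± 3.1 at 24 h.

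WIPI1 encodes a reader of the lipid mark on the forming membrane, on chromosome 17 at 66417089 to 66453654 (minus strand, ENSG00000070540). It was at 4.88, 4.89 and 7.54 FPKM at 0 h, 4.86, 6.60 and 9.96 at 1 h, 6.73, 7.26 and 10.5 at 2 h, and 12.6, 10.5 and 10.5 at 24 h. Replicate 3 was the highest at 0, 1 and 2 h and no higher than the others at 24 h. WIPI1 rose by 0.92 (SE 0.24, adjusted p = 0.0069, limma), a ratio of means of 1.94, and its 24 h libraries overlapped those of 2 h. Without 0 h replicate 3 its difference was 1.11, past the threshold for differential expression. Without any other library of 0 h or 24 h it was 0.82 to 0.96, with adjusted p from 0.014 to 0.03 (limma), short of that threshold. The leading transcript ENST00000262139 varied widely, from 1.64 to 6.08 FPKM at 0 h and from 3.84 to 8.39 at 24 h, and did not pass (adjusted p = 0.17). ENST00000546360 passed with an adjusted p of 0.042, at 9.0% of WIPI1 FPKM at 0 h and 15.5% at 24 h, and lost the call in 4 of the 6 fits that leave out a library of either group.

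ATG16L1 places the conjugation complex on the membrane, and its gene lies on chromosome 2 at 234118697 to 234204320 (plus strand, ENSG00000085978). It was at 19.6, 18.1 and 17.7 FPKM at 0 h, 19.7, 20.6 and 17.9 at 1 h, 21.5, 17.98 and 17.2 at 2 h, and 20.1, 15.5 and 14.9 at 24 h. The time points overlapped throughout. Its log2 difference at 24 h was -0.14 (SE 0.13, adjusted p = 0.37, limma). ENST00000392020 led at 45.3% ± 2.2 of ATG16L1 FPKM at 0 h and 44.95% ± 4.5 at 24 h. ENST00000392017 held 16.1% ± 10.8 at 0 h and 13.1% ± 4.0 at 24 h. A class j model of ENST00000392018 with 3096 bases was at 1.87, 1.102 and 1.55 FPKM at 0 h and at 0.00367, 0 and 0.0159 at 24 h (adjusted p = 0.0024, limma), and was singled out after its values were seen. A longer class j model of the same reference, 3621 bases, passed the filter only through its 24 h libraries, the group in which it was high. Its adjusted p was 0.047 (limma), and it lost the call in 5 of the 6 fits that leave out a library.

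MAP1LC3B encodes LC3B, the most used marker of the autophagosome, on chromosome 16 at 87417559 to 87438385 (plus strand, ENSG00000140941). It was at 27.4, 26.3 and 30.9 FPKM at 0 h, 28.9, 29.5 and 33.3 at 1 h, 33.7, 30.1 and 42.4 at 2 h, and 39.2, 43.5 and 45.1 at 24 h. The 24 h libraries were above those of 0 h and 1 h and overlapped those of 2 h through 2 h replicate 3. The log2 difference at 24 h was 0.59 (SE 0.13, adjusted p = 0.0018, limma), a ratio of means of 1.51. ENST00000268607 held 89.3% ± 5.2 of it at 0 h and 87.9% ± 3.8 at 24 h and passed as higher (adjusted p = 0.016), though not without 0 h replicate 1 (adjusted p = 0.060). MAP1LC3B2, a near-identical copy named after its values were seen, was at 32.3, 30.8 and 33.1 FPKM at 0 h and 55.9, 60.3 and 50.8 at 24 h. Since reads could be split between both copies, the level of either gene is uncertain.

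GABARAPL1, an ATG8 protein of the GABARAP branch, lies on chromosome 12 at 10365057 to 10375727 (plus strand, ENSG00000139112). It was at 14.8, 12.5 and 13.5 FPKM at 0 h, 16.1, 11.7 and 17.0 at 1 h, 21.2, 18.6 and 24.7 at 2 h, and 44.6, 41.9 and 38.0 at 24 h. The 2 h libraries lay above all 0 h libraries and the 24 h libraries above all 2 h libraries, so that GABARAPL1 was the member with the highest log2 difference at both times. It rose by 1.58 from 0 h to 24 h (SE 0.15, adjusted p = 4e-06, limma), a ratio of means of 3.06, and by 0.94 from 2 h to 24 h (SE 0.15, adjusted p = 0.00023). Among all genes its 24 h difference stood at the 97.1 percentile, and that of ULK1 at the 95.3 percentile. A single coding transcript, ENST00000266458 (10365476 to 10375727), held 92.0% ± 4.8 of GABARAPL1 FPKM at 0 h and 94.1% ± 0.3 at 24 h. That transcript was at 12.8, 11.8 and 12.8 FPKM at 0 h, 20.1, 17.3 and 23.0 at 2 h, and 41.9, 39.6 and 35.8 at 24 h (24 h against 0 h, adjusted p = 4.9e-05). GABARAPL3, a near-identical copy that can share its reads, rose too, from 0.321, 0.536 and 0.626 FPKM at 0 h to 2.64, 1.62 and 1.45 at 24 h, and was named after its values were seen.

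SQSTM1 encodes p62, the receptor that brings ubiquitinated cargo to the membrane, on chromosome 5 at 179233398 to 179265078 (plus strand, ENSG00000161011). It had the highest level of the 10, at 173, 148 and 142 FPKM at 0 h, 154, 146 and 153 at 1 h, 159, 134 and 158 at 2 h, and 154, 174 and 179 at 24 h. The 24 h libraries overlapped those of 0 h and 2 h and lay just above those of 1 h, and the log2 difference from 0 h at 24 h was 0.14 (SE 0.10, adjusted p = 0.29, limma). Its transcripts differed among themselves. ENST00000389805 (179247905 to 179265078), whose shorter model held 82.4% ± 0.8 of SQSTM1 FPKM at 0 h, was at 144, 122 and 116 FPKM at 0 h and 117, 124 and 132 at 24 h (log2 difference -0.03, adjusted p = 0.88). ENST00000376929 belongs to a start-site group whose other transcripts begin at 179233398 and 179233408, upstream of that start, and went from 5.13, 5.06 and 4.89 FPKM at 0 h through 4.30, 4.56 and 4.87 at 2 h to 12.2, 20.2 and 13.1 at 24 h. Its log2 difference at 24 h was 1.47 (SE 0.19, adjusted p = 0.00025, limma), and it passed without each library in turn but not on TPM (0.61, adjusted p = 0.22). Its share of SQSTM1 FPKM went from 3.3% ± 0.3 to 8.9% ± 2.3 and that of the leading transcript to 73.6% ± 2.6, so the upstream start remained the minor one. A longer model of ENST00000389805, 2986 bases, was at 12.5, 10.5 and 10.6 FPKM at 0 h and 12.9, 17.2 and 20.6 at 24 h, and passed as higher (0.56, adjusted p = 0.045, limma). Its call was lost in 5 of the 6 fits that leave out a library, and its share was 7.3% ± 0.2 at 0 h and 9.9% ± 1.6 at 24 h. ENST00000376929 falls under the share at which transcripts were to be named and was singled out after its values were seen, as was that longer model.

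TFEB, the transcription factor of autophagy and lysosome genes, had the lowest level of the 10 and lies on chromosome 6 at 41651716 to 41703997 (minus strand, ENSG00000112561). It was at 0.975, 1.27 and 1.35 FPKM at 0 h, 0.850, 1.22 and 1.41 at 1 h, 1.32, 1.28 and 1.45 at 2 h, and 2.52, 2.13 and 2.41 at 24 h. The 24 h libraries lay above all 9 others. On log2(FPKM + 0.5), which understates the change of a gene this low, TFEB rose by 0.75 (SE 0.17, adjusted p = 0.0024, limma), and the ratio of means was 1.963. No single TFEB transcript passed. ENST00000373033 held 40.8% ± 19.2 of TFEB FPKM at 0 h and 37.7% ± 10.7 at 24 h, and ENST00000406563 held 18.7% ± 14.9 and 34.2% ± 11.4.

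**Figure D3:**
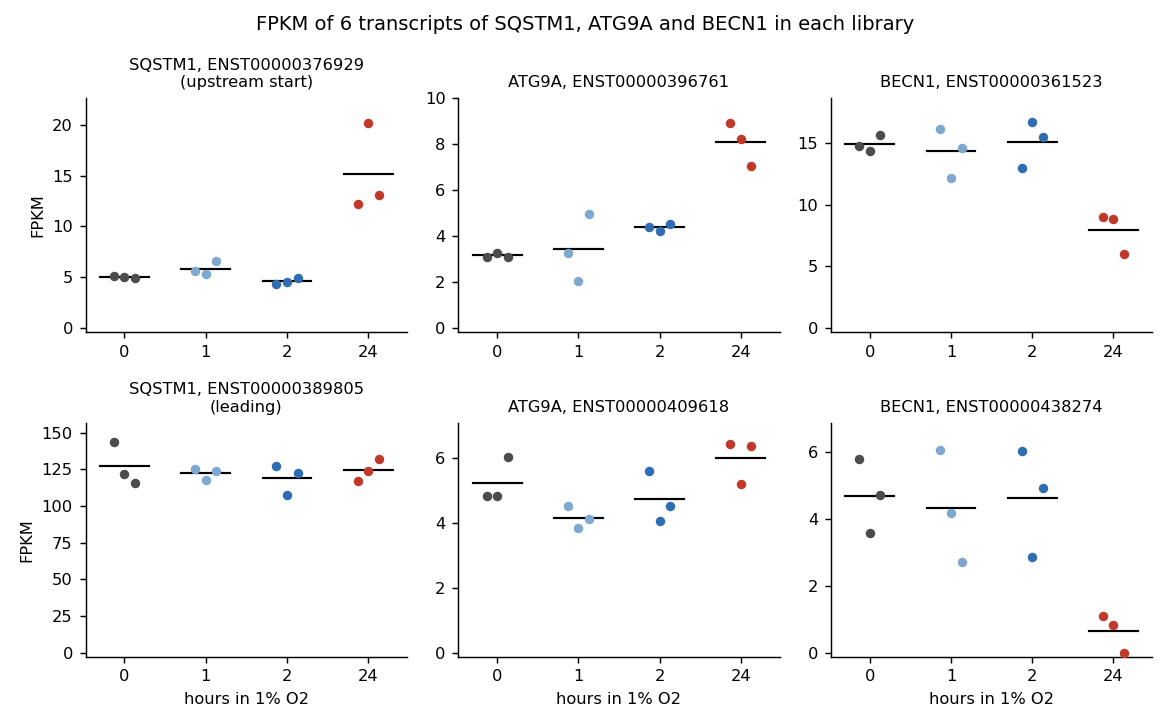
FPKM (vertical axes) of 6 transcripts in each library by hours in 1% O2 (horizontal axes), with points for libraries and lines for means of 3. ENST00000376929 of SQSTM1 and ENST00000396761 of ATG9A are higher at 24 h than in all earlier libraries on the FPKM scale, and ENST00000361523 and ENST00000438274 of BECN1 are lower; ENST00000389805 of SQSTM1 and ENST00000409618 of ATG9A overlap between 0 h and 24 h.

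Across the 10 genes the table holds 192 transcripts, of which 67 passed the filter. At 24 h 13 of the 67 passed as higher and 5 as lower, while of all 62162 transcripts 11.3% passed as higher and 15.3% as lower. Of the 13, 4 (1 each of ULK1, GABARAPL1, ATG9A and ATG16L1) would not have passed the filter without their 24 h libraries. Since the same transcripts make up the gene sums, these counts are not separate evidence. On TPM 2 member transcripts passed as higher and 8 as lower, against 2.89% and 23.6% of all transcripts. Of the 18 that passed on FPKM, 10 kept their call without any 1 library. The transcripts of GABARAPL1, ULK1 and MAP1LC3B that passed were all higher, those of BECN1 were all lower, and ATG9A and ATG16L1 had transcripts in both directions. For ATG16L1 the only higher one was among the 4 that needed their 24 h libraries to pass the filter.

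One question of the study was whether genes switch between coding and noncoding isoforms in hypoxia, so the share of each gene's FPKM on noncoding references (retained intron, nonsense-mediated decay and other transcripts with no coding sequence) was taken. In 3 of the 10 genes (BECN1, ULK1 and ATG2A) this share was higher in all 24 h libraries than in all 0 h libraries, as it was in 13.8% of 10019 genes with both kinds of transcript, and in none was it lower without overlap, against 7.38% of genes. The shares are given as a description, with no test. For BECN1 the share was 10.3, 12.6 and 13.5% at 0 h and 20.5, 22.8 and 22.7% at 24 h. Its noncoding transcripts were at 6.36, 6.93 and 7.03 FPKM at 0 h and 9.54, 8.01 and 7.02 at 24 h, and its coding transcripts at 55.4, 48.1 and 45.2 and at 37.0, 27.1 and 23.9. Coding FPKM of BECN1 was thus lower in each 24 h library, while noncoding FPKM overlapped between the groups. Retained-intron transcripts alone made up 8.2% ± 0.3 of BECN1 at 0 h and 16.5% ± 1.5 at 24 h. At 1 h and 2 h the noncoding share of BECN1 lay between 10.2 and 15.4%, below all 24 h libraries.

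For ULK1 the noncoding share was 4.61, 5.18 and 5.08% at 0 h, 22, 9.04 and 3.91% at 1 h, 19.1, 7.98 and 18.01% at 2 h, and 7.96, 13.7 and 12.5% at 24 h. The 2 h libraries too lay above all 0 h libraries, and their mean was above that of 24 h, so the higher ULK1 share was not particular to 24 h. All of it lay on 6 retained-intron transcripts, and both its coding and its noncoding FPKM were higher at 24 h. For ATG2A the share was 14.5, 4.30 and 7.91% at 0 h, 0, 4.46 and 1.15% at 1 h, 7.18, 20.5 and 1.93% at 2 h, and 23.8, 20.5 and 21.2% at 24 h, at a noncoding level of at most 1.04 FPKM, and 85.8% of its FPKM at 0 h lay on models whose reference has no type in the annotation. With class = alone the ATG2A groups overlapped. GABARAPL1, the gene that rose most, kept 5.0% ± 3.2 of its FPKM on noncoding transcripts at 0 h and 4.8% ± 0.7 at 24 h.

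**Figure D4:**
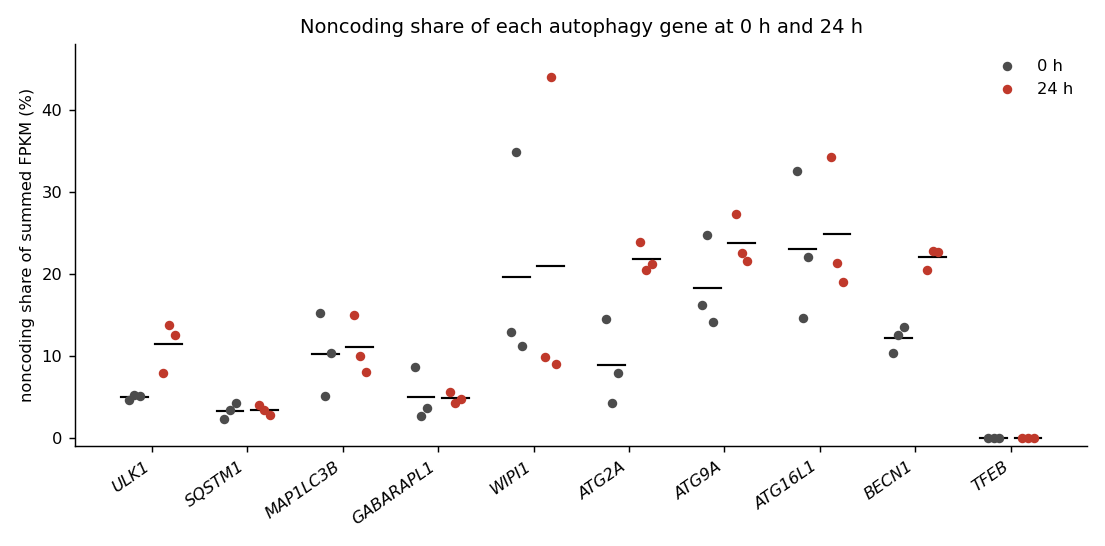
Share of summed FPKM on noncoding transcripts (vertical axis, percent) for each gene, with points for libraries and lines for means of 3 at 0 h and 24 h. BECN1, ULK1 and ATG2A separate between 0 h and 24 h, and the groups of the other genes overlap.

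The wider pathway was read from a list of 67 further autophagy and lysosome genes, of which 65 passed the filter. That list too was chosen with earlier results of these data known. At 24 h 25 of these passed as higher and 13 as lower, with 7 called differentially expressed higher and 5 lower. Over all genes 25.0% passed as higher and 30.3% as lower, with 8.76% and 9.51% differentially expressed, and the counts by role are to be read against these shares. Their median log2 difference was 0.29, and no gene of the list passed at 1 h or at 2 h. On TPM 1 gene of the list passed as higher and 19 as lower, where 3.32% of all genes passed as higher and 41.1% as lower. Of the genes named here as higher OPTN alone passed on TPM (1.5047, adjusted p = 0.0015, limma). ULK2, WDR45B, NBR1, TFE3, FOXO3 and CTSB did not, with adjusted p from 0.20 to 0.61. PIK3R4, ATG3, MCOLN1 and ATP6V0D1 passed as lower on TPM too. With the replicate block NBR1 passed at 2 h.

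Of the 4 partners and relatives of ULK1, 3 rose and ATG101 fell. ULK2, the second kinase of this kind, was at 1.57, 2.203 and 1.78 FPKM at 0 h and 6.05, 4.17 and 5.66 at 24 h, with a log2 difference of 1.29 (SE 0.28, adjusted p = 0.0019, limma). In the lipid kinase complex 2 of 7 genes rose and 2 fell. PIK3R4, the regulatory subunit that binds the catalytic subunit in the same complex as Beclin 1, was at 11.5, 12.7 and 12.02 FPKM at 0 h and 4.71, 4.47 and 5.81 at 24 h. PIK3R4 thereby fell by 1.1996 on the log2 scale (SE 0.14, adjusted p = 2.1e-05). Of the 5 relatives of ATG9A, ATG2A and WIPI1, 3 passed as higher and none as lower, where 1 of the 3, ATG9B, which is also among the 25 of the list, passed the filter only through its 24 h libraries. WDR45B, a protein of the WIPI family, was at 68.4, 67.6 and 62.4 FPKM at 0 h and 182, 200 and 192 at 24 h (log2 difference 1.53, SE 0.10, adjusted p = 3.8e-07).

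In the conjugation machinery 3 of 10 genes rose and 3 fell, with a median of -0.05. ATG3, the enzyme that hands ATG8 proteins to the lipid, was at 68.5, 61.5 and 58.0 FPKM at 0 h and 26.4, 32.9 and 25.8 at 24 h, and fell by 1.13 (SE 0.12, adjusted p = 1.4e-05). All 3 further ATG8 genes that were tested (GABARAP, GABARAPL2 and MAP1LC3B2) rose on the FPKM scale. Reads of MAP1LC3B2 could be split with MAP1LC3B, so its rise is not separate from that of MAP1LC3B. On TPM GABARAP and GABARAPL2 turned negative while staying above the median of all genes. GABARAP was at 105, 131 and 146 FPKM at 0 h and 205, 200 and 175 at 24 h (log2 difference 0.61, adjusted p = 0.0097). GABARAPL2 was at 55.3, 52.9 and 58.0 FPKM at 0 h and 104, 99.6 and 74.9 at 24 h (0.72, adjusted p = 0.00085). GABARAPL1 thus had the highest log2 difference of the 4 genes of the GABARAP branch and LC3B, at a level below that of GABARAP. MAP1LC3A and MAP1LC3C did not pass the filter.

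Among the other cargo receptors 4 of 7 rose and none fell, whereas SQSTM1 did not pass. OPTN (optineurin, a receptor for damaged mitochondria and bacteria) had the highest difference of the list, 2.41 (SE 0.30, adjusted p = 3.4e-05), and was at 4.10, 5.88 and 6.94 FPKM at 0 h and 40.5, 30.7 and 25.4 at 24 h. NBR1, a receptor related to p62, was at 14.8, 17.9 and 19.6 FPKM at 0 h, 24.3, 22.1 and 27.3 at 2 h, and 34.4, 43.4 and 52.7 at 24 h (24 h log2 difference 1.28, adjusted p = 4e-05). Of the 4 further transcription factors 2 rose and none fell, and MITF (-0.32, adjusted p = 0.28) and FOXO1 (0.40, adjusted p = 0.091) did not pass. TFE3, the close relative of TFEB, was at 5.195, 5.69 and 5.50 FPKM at 0 h and 13.7, 14.6 and 13.8 at 24 h (1.28, adjusted p = 1.1e-06). FOXO3 was at 7.72, 7.65 and 7.76 FPKM at 0 h and 14.2, 16.7 and 24.9 at 24 h (1.18, adjusted p = 9.8e-05), and without 24 h replicate 3 its difference was 0.95, under the threshold of 2-fold.

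The lysosome genes went both ways, with 3 of 16 higher and 6 lower. CTSB, a lysosomal protease, was at 72.0, 86.1 and 83.6 FPKM at 0 h and 199, 179 and 165 at 24 h (1.16, adjusted p = 0.00021). MCOLN1, a lysosomal calcium channel, was at 6.13, 5.44 and 5.77 FPKM at 0 h and 1.498, 0.980 and 1.31 at 24 h (-1.84, adjusted p = 1.1e-06). ATP6V0D1, a subunit of the proton pump, was at 27.7, 26.2 and 27.3 FPKM at 0 h and 16.0, 10.9 and 8.03 at 24 h (-1.24, adjusted p = 0.00011). In the fusion machinery 2 of 9 genes rose and 1 fell.

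**Figure D5:**
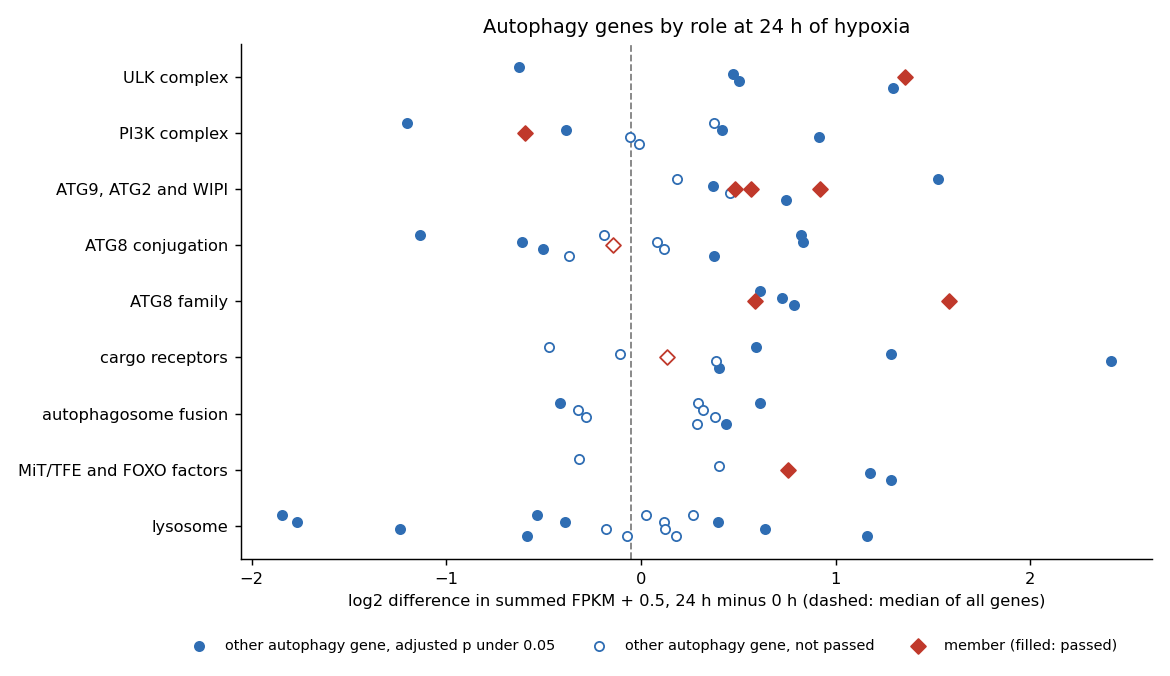
Log2 difference in summed FPKM + 0.5 at 24 h against 0 h (horizontal axis) of the 10 members (diamonds) and 65 further autophagy and lysosome genes (circles) by role; filled symbols passed at an adjusted p under 0.05, and the dashed line is the median of all genes at -0.05. The ATG8 family lies wholly to the right on the FPKM scale, where TPM turns MAP1LC3B, GABARAP and GABARAPL2 negative, and the lysosome genes spread from -1.84 to 1.16.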

How the data were processed

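The 12 libraries were poly(A) RNA of HCT116 cells, sequenced as strand-specific read pairs. According to the study's methods, the authors aligned reads to hg19, assembled transcripts with Cufflinks and merged them with Ensembl; the submitters' processing notes also name CASAVA 1.8.2 and GRCh37. The deposited values are FPKM per transcript and library, and no normalisation between libraries is stated for them. Read counts were not analysed here. No value column was left unmapped.

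FPKM of class = and j transcripts was summed per gene name. Sums above 0.5 FPKM in at least 3 libraries were kept, and limma 3.58.1 (lmFit, eBayes with trend) in R 4.3.3 with data.table (version 1.17.8) was run on log2(sum + 0.5) over all 12 libraries with time point as the factor. Every p is two-sided. Transcripts were fitted in the same way. The steps were tested on simulated data. Tables and plots used Python 3.11.15, numpy 2.4.6, pandas 2.3.3 and matplotlib 3.10.9. Transcript types and gene positions came from GENCODE lifted to GRCh37, matched by Ensembl identifier (170 of 192 member transcripts).

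Named were all 10 members, transcripts with at least 15% of a member's FPKM at 0 h or 24 h, further list genes that were differentially expressed at 24 h (1 of them is not reported here), GABARAP, GABARAPL2, ABCB6 and the checks of labels and cell type; MAP1LC3B2, GABARAPL3, transcripts under that share and genes whose direction is counted were named after their values were seen. The members and lists were chosen with earlier results of these data known. Same-numbered libraries correlated in their deviations by 0.129 to 0.362 between 0 h and 2 h (3 pairs), by 0.117 to 0.428 between 1 h and 2 h, by 0.095 to 0.34 between 0 h and 1 h and by -0.001 to 0.242 between 0 h and 24 h. Of the comparisons with 0 h, the replicate number was therefore taken to pair libraries in that at 2 h. The labels give the numbers, and the methods describe no pairing. Alternatives changed the summing, scaling, filter, pseudocount, prior, libraries and block.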

Additional observations from a re-analysis of the deposited data

Results flagged for a closer look

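For 6 of the 10 genes the effect at 24 h differed from that at 2 h, tested as the contrast of 24 h with 2 h in limma. The difference was 1.17 (log2) for ULK1, 0.94 for GABARAPL1, 0.63 for TFEB, 0.56 for ATG2A and 0.48 for ATG9A, and BECN1 fell by 0.61. The adjusted p (limma) was 9.8e-05, 0.00023, 0.0083, 0.0083, 0.012 and 0.0023 in that order. Of all genes tested 23.2% passed as higher in this contrast and 27.4% as lower. On TPM the median of all genes was at 0.124 in this contrast. ULK1 was at 1.14 (adjusted p = 0.024, limma), GABARAPL1 at 1.11 (0.083) and TFEB at 0.52 (0.21). ATG2A was at 0.56 (0.27), ATG9A at 0.66 (0.39) and BECN1 at -0.38 (0.69). The share of all genes that passed on TPM in this contrast is not given here.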

How the results depend on the processing

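Of the 8 genes that passed at 24 h, all 8 passed without any 1 library, with another pseudocount, with another or no minimum for the gene sum, without the trend in limma, with median-of-ratios scaling and over the 6 libraries of the contrast. Over whole loci they passed too, but the ATG9A locus also holds ABCB6, and its difference of 0.87 in place of 0.49 is no check of ATG9A. With transcripts filtered before summing 7 passed, as with class = alone, where ATG2A was lost both times. On TPM over transcripts of at least 300 bases 7 passed, and ATG9A was lost. On TPM 1 gene passed at 24 h (BECN1), 1 was differentially expressed, 4 passed at 2 h (SQSTM1, ATG9A, ATG16L1 and BECN1, all lower), 20 genes of the wider list (19 lower) and 10 member transcripts (8 lower) passed, where 41.1% of all genes were lower at 24 h and 54.2% at 2 h, and the 24 h differences of SQSTM1 (-0.73), MAP1LC3B (-0.27), ATG2A (-0.12) and ATG9A (-0.35) changed sign; ULK1 (0.51), GABARAPL1 (0.71), WIPI1 (0.11) and TFEB (0.08) did not pass. The median of all genes was then -0.675, against -0.05. ATG2A was at -0.0216 with transcripts filtered before summing. With the replicate block 1 gene passed at 2 h (GABARAPL1) and MAP1LC3B passed between 24 h and 2 h (adjusted p = 0.023); the pairing changed no other call of the 10 genes, and at 24 h, where same-numbered libraries correlated by 0.082 on average, 8 genes passed with the block and 45 of the wider list in place of 38, as did 59.2% of all genes in place of 55.3%. Leaving out a library gave 12 to 15 member transcripts in place of 18, 32 to 42 genes of the wider list, and 2 or 3 differentially expressed members. After the data were seen, the noncoding share was recomputed with class = alone (change of 10.6 points for ULK1 in place of 6.44) and ATG9A without the models that reach into ABCB6 (difference of 5.45 FPKM in place of 7.42). Depth cannot be read from FPKM.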
